A study of Mus musculus with 64 samples.

Results

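The genes described here are 37 mouse genes of the interferon response and of antigen presentation, taken from a named list and all found among the 16913 genes of the gene count table. They comprise 25 interferon-induced genes, 7 genes of the class I pathway and 5 genes of the class II pathway. The table comes from bulk RNA-seq of hearts of C57BL/6J mice, with 64 libraries in 8 groups. TG mice carry cTnT-delta160E, a form of cardiac troponin T that lacks 1 glutamate and is studied as a model of hypertrophic cardiomyopathy, and nTG mice are the genotype set against them. HIIT mice ran high intensity interval training on a treadmill for 6 weeks, with 3 sessions per week of 31 minutes each, and sedentary mice did not exercise. In males, the groups were nTG sedentary (n = 7), nTG HIIT (n = 8), TG sedentary (n = 9) and TG HIIT (n = 8). In females, they were nTG sedentary (n = 8), nTG HIIT (n = 10), TG sedentary (n = 8) and TG HIIT (n = 6). All groups share strain and tissue, and the replicates are labelled as separate biological replicates. The labels used here give no age and no promoter for the transgene.

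Type I and type II interferons are secreted signals that bind receptors coupled to JAK kinases, which activate STAT proteins. A complex that holds STAT2 and IRF9 then switches on a broad programme of antiviral genes through a promoter sequence called the interferon-stimulated response element. A second promoter sequence, the gamma-activated site, serves the response to interferon gamma. The same signals raise MHC class I, which shows peptides from inside nearly every cell, and, through the regulator CIITA, MHC class II, which is mostly made by macrophages, dendritic cells and B cells. In the heart, these transcripts come from cardiomyocytes, endothelial cells, fibroblasts and resident immune cells, and in a bulk library fewer cells of a type and less RNA per cell cannot be told apart.

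The sample names of the gene columns did not match the libraries, so each column of the lncRNA table was given the gene column it correlated with best, and its label was used. All 64 columns formed mutual pairs over 389 shared transcripts, with a correlation of 0.599 to 0.863 for the chosen column and at most 0.404 for the next one. With these pairs, 0 libraries went against the labelled sex or genotype, against 45 of 64 when columns were taken by name. Tnnt2, the gene of cardiac troponin T, was at 2665 to 3428 CPM (counts per 1000000 of the library total) in the nTG libraries and at 6903 to 12001 CPM in the TG libraries. These Tnnt2 values were not TMM scaled, whereas every later CPM is after TMM scaling. Totals were 34.6 to 67.1 M counts per library (M, 1000000 counts), with a median of 48.0 M.

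Promoter sequences show what the members share before any level is considered. RefSeq starts on build GRCm38.p6 were matched by symbol for 29 of the 37 members. Mx1, Mx2, Usp18, Rtp4, Tap2, H2-Ab1, Cd74 and Ciita had no entry and were not analysed here. In the 250 bases before the start, on both strands, the interferon-stimulated response element was searched as GAAA, any 2 bases, and GAAA again, the gamma-activated site as TTCNNNGAA, and the Y box of MHC promoters as CTGATTGG. The Y box holds the shorter CCAAT on its opposite strand, so those matches overlap. The response element was found in 10 of 21 interferon-induced members, 1 of 6 class I members and 0 of 2 class II members, against 3.46% of 27025 genes in the table. TTCNNNGAA was found in 6 of 21 interferon-induced members and 1 of 6 class I members, against 8.13% of all genes. CTGATTGG was found in 1 of 21 interferon-induced, 3 of 6 class I and 2 of 2 class II members, against 4.43% of all genes. CCAAT alone was in 7 of 21, 5 of 6 and 2 of 2, against 37.5% of all genes. These matches describe letters in the window and are not evidence of a bound factor.

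The 6 promoters printed here are examples that each hold the motif shown. Each is given as the 180 bases that end just before the start, read 5′ to 3′ on the gene's own strand. Ifit2, called in both trained genotype comparisons below, had no match of the response element at its 2 listed starts and is not printed. Ifit1 (chr19:34640709-34640888, + strand) and Ifit3 (chr19:34583349-34583528, + strand) each hold 2 matches of the response element, in capitals, on the opposite strand. B2m (chr2:122147507-122147686, + strand) holds 1, in capitals on its own strand. Irf8 (chr8:120736178-120736357, + strand), shown at 1 of its 2 listed starts, holds 2 gamma-activated sites in capitals and also a Y box, left in lower case. H2-Aa (chr17:34287824-34288003, - strand) and H2-Eb1 (chr17:34305687-34305866, + strand) hold the Y box in capitals.
Ifit1: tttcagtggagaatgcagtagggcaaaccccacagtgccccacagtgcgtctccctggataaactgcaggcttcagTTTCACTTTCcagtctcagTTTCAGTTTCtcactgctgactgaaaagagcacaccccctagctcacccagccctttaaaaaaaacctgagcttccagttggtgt
Ifit3: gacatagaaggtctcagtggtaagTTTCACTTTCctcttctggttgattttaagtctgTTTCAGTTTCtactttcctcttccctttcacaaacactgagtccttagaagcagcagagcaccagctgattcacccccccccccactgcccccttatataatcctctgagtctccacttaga
Irf8: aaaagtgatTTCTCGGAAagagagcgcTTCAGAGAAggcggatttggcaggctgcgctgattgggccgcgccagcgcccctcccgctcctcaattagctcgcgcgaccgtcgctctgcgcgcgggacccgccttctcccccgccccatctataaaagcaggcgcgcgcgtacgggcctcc
B2m: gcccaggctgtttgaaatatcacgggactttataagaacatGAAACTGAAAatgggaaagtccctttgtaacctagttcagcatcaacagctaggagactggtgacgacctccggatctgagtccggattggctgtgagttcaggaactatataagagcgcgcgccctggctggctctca
H2-Aa: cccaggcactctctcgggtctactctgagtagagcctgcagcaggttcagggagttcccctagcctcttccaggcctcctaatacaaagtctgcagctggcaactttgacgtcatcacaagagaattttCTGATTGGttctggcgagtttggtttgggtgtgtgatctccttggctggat
H2-Eb1: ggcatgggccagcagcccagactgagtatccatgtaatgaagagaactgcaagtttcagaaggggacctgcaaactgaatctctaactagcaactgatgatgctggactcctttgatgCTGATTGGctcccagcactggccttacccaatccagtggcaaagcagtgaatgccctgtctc
Psmb9 and Tap1 start back to back on opposite strands, and their single Y box is the same 8 bases at chr17:34187334-34187341, counted in the promoters of both genes.

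The members spanned a wide range of levels. Per kilobase of exon, mean CPM over all libraries ran from 0.136 for Mx1, a gene of the interferon-induced GTPases, to 171 for B2m, the light chain of every class I molecule. Per kilobase, the median was 2.18 for interferon-induced members, 11.3 for class I members and 12.1 for class II members. Mx1 was counted at only 3 reads in its lowest library, whereas every other member had at least 23. Members also varied more between mice of a group than most genes did. Their within-group SD of log2(CPM + 0.1) was 0.125 to 0.579, with a median of 0.312, and 34 of 37 lay above the median of 0.175 over all genes. Isg15, a ubiquitin-like protein joined to other proteins, had the widest spread at 0.579, and Tap2, a subunit of the peptide transporter, the narrowest at 0.125.

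The medians of the 8 groups placed males at the low end for all 37 members. The lowest median was in nTG HIIT males for 19 members, in TG HIIT males for 10 and in nTG sedentary males for 8. The highest median was in nTG sedentary females for 15 members and in TG HIIT females for 15, with TG sedentary males highest for 5. Classes differed in this order. All 5 class II members were lowest in TG HIIT males and highest in nTG sedentary females, whereas 16 of 25 interferon-induced members were lowest in nTG HIIT males and 13 were highest in TG HIIT females. These are orders of medians, and the groups overlapped as described below.

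In males, 2 libraries stood apart from the rest of their groups. In TG HIIT male replicate 4, all 37 members were at their highest of the 8 libraries, while 21.4% of all genes were highest there. In nTG sedentary male replicate 7, 35 members were highest of the 7 libraries, while 19.1% of all genes were, and the exceptions were H2-Aa and H2-Eb1. The summed level of the 25 interferon-induced members was 414.6 CPM in the first against 180.4 to 240.5 CPM in the other 7, and 411.3 CPM in the second against 175.6 to 212.3 CPM in the other 6. Both sums lay above every other library of the series, as the plot of summed class levels shows. The first had the lowest total of its group, at 42.2 M counts against 44.5 to 57.9 M, and the second lay within its group, at 53.3 M against 44.6 to 67.1 M.

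**Figure D1:**
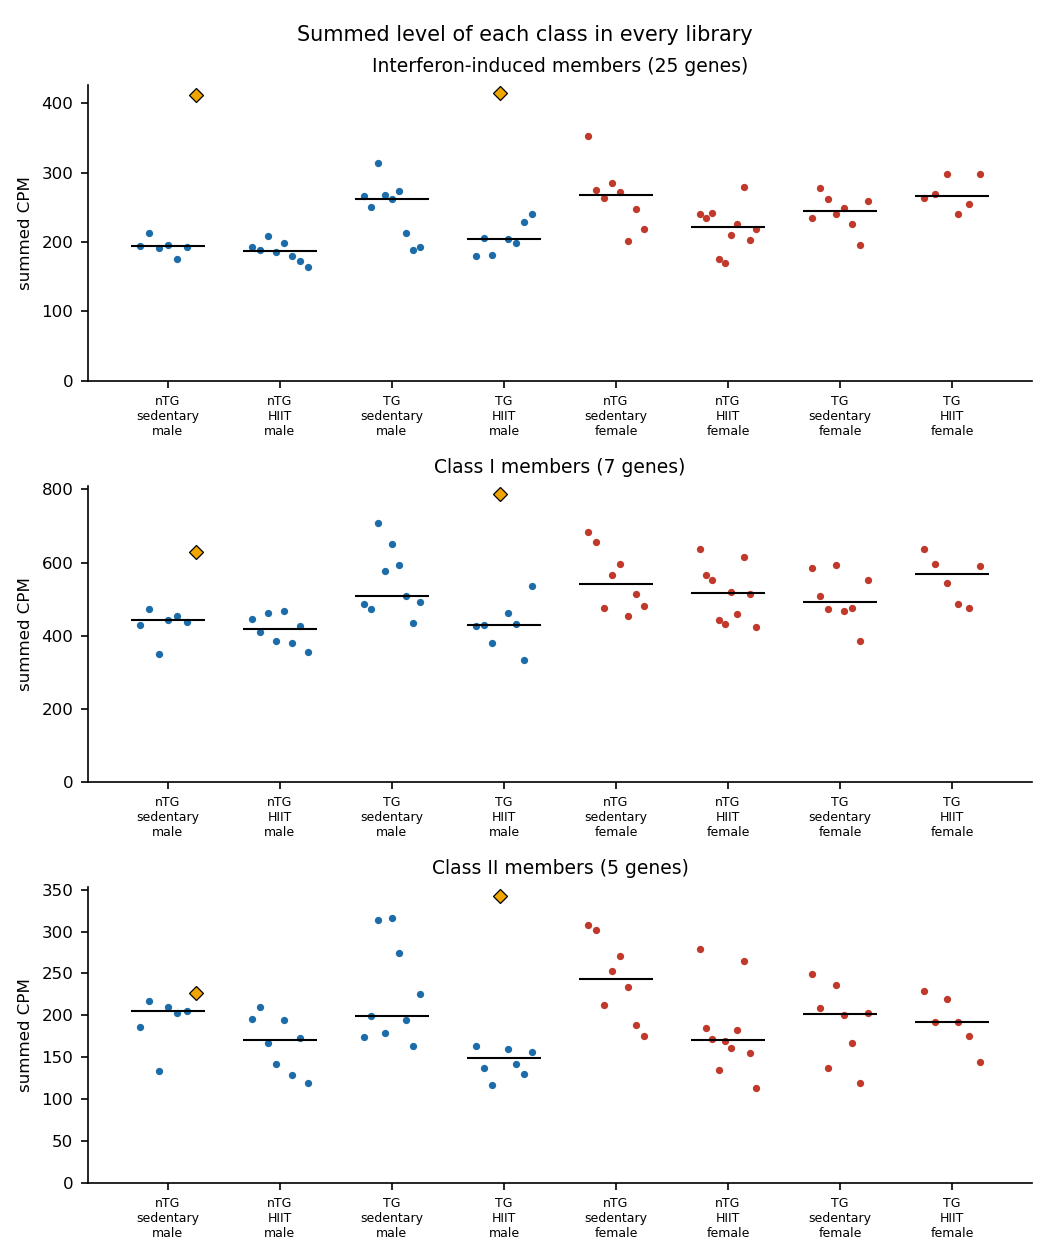
Summed CPM of interferon-induced, class I and class II members in each of 64 libraries by group (males blue, females red), with a line at each group's median. Diamonds mark nTG sedentary male replicate 7 and TG HIIT male replicate 4, whose interferon-induced sums of 411.3 and 414.6 CPM lie above all other libraries, while the class II sum of the former (226.2 CPM) lies close to its group.

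The 2 libraries differed from each other in class II genes and in cell type markers. In TG HIIT male replicate 4, the class II sum was 342.3 CPM against 117.2 to 163.5 CPM, and the median class II member stood at 2.43 times the median of the other libraries. In nTG sedentary male replicate 7, the class II sum was 226.2 CPM against 133.7 to 217.4 CPM, with a median ratio of 1.13. Interferon-induced members stood at median ratios of 2.04 and 2.14, and class I members at 1.82 and 1.66, in the same order. Irf7, the factor that amplifies the type I interferon response, had the largest ratio in the nTG library, at 53.19 CPM against 7.962 to 10.78 CPM in the other 6, or 5.65 times their median. Mx1 had the largest ratio in the TG library, at 3.94. Summed macrophage markers (11 genes) were at 418 CPM in TG HIIT male replicate 4 against 243.7 to 318.3 CPM in its group, but at 231.2 CPM in nTG sedentary male replicate 7, within the 192.3 to 260.7 CPM of its group. Fibroblast markers (6 genes) showed the same split, at 1777 CPM against 787.4 to 1067 CPM and at 807.1 CPM within 736.9 to 986.4 CPM. General leukocyte markers (3 genes) were above the group in both, at 75.18 CPM against 38.9 to 44.64 CPM and at 46 CPM against 31.77 to 40.46 CPM. So were T and NK cell markers (4 genes), at 4.229 CPM against 1.686 to 2.721 CPM and at 3.163 CPM against 1.789 to 2.441 CPM. B cell markers (6 genes) were above the group in the TG library, at 19.62 CPM against 8.831 to 11.9 CPM, and within it in the nTG library, at 14.49 CPM. Dendritic cell markers (6 genes) showed the same, at 39.39 CPM against 28.85 to 35.88 CPM in the first and at 31.4 CPM, within the group, in the second. Cardiomyocyte markers (7 genes) were at 48384 CPM in TG HIIT male replicate 4 against 55788 to 64696 CPM, and within the group in the other library. Adipocyte markers (2 genes) were at 5.057 CPM in TG HIIT male replicate 4 against 0.1573 to 2.739 CPM, and Acta1, the skeletal muscle actin, at 688.8 CPM against 135.3 to 336.8 CPM. In nTG sedentary male replicate 7, the adipocyte markers were at 0.2538 CPM, below the 0.3104 to 3.761 CPM of the others, and Acta1 at 145.5 CPM was within its group. No gene of these lists was at 3 counts or fewer in every library, and the part of these cells in the members' levels was not tested. Members' results that rest on either library are given below with and without it, and so are the counts of the further gene lists in the male comparisons that hold it. Because the 2 libraries were picked for their high members, leaving one out lowers its group by construction and narrows the spread. Values without them are descriptions and carry no independent test.

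**Figure D2:**
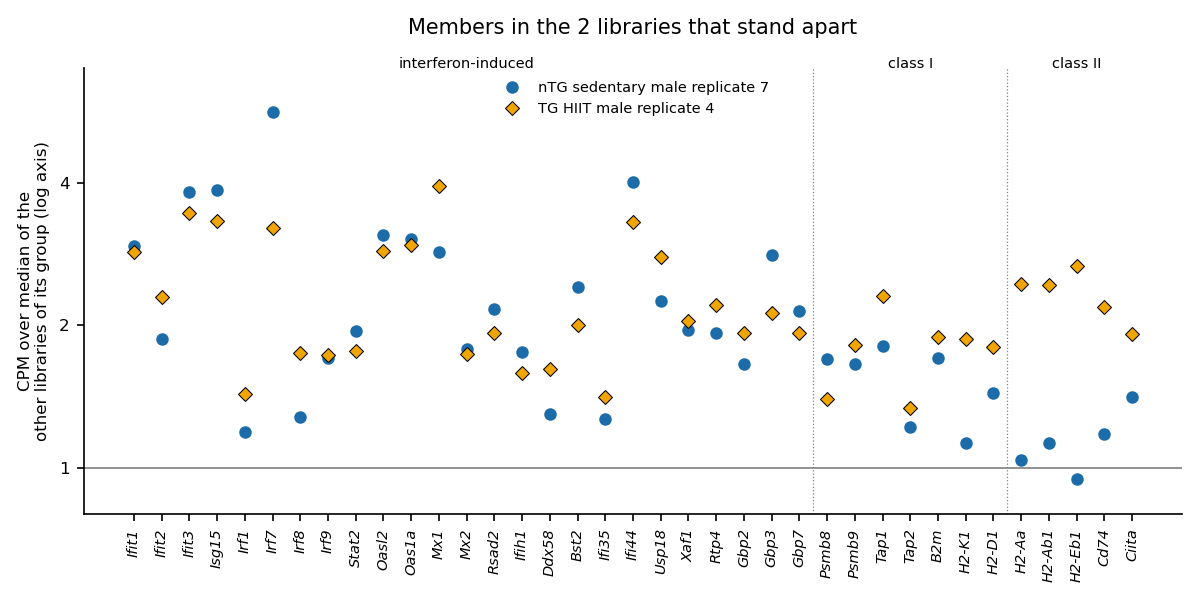
CPM of each member in the 2 male libraries, as a ratio to the median of the other libraries of the same group (log axis). Interferon-induced members lie high in both, with Irf7 at 5.65 in the nTG library, while class II members reach 1.92 to 2.67 in the TG library and 0.947 to 1.41 in the nTG library.

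The first question was whether the transgene went with a change in these genes. In sedentary males, 2 of 37 members rose in TG hearts, against 9.39% of all genes tested that were called higher. Irf8, a factor of macrophage and dendritic cell development, was at 6.902, 9.988 and 12.73 CPM (lowest, median and highest, n = 9) in TG and at 6.389, 7.157 and 8.825 CPM (n = 7) in nTG. Of the 9 TG hearts, 6 lay above every nTG heart, although the groups overlapped. Its log2 fold change was 0.46 (SE 0.11, adjusted p = 0.00128, edgeR's quasi-likelihood test with Benjamini-Hochberg adjustment over all genes, as for every adjusted p below). B2m was at 118.6, 160.1 and 201.2 CPM in TG and at 102.5, 113.4 and 187.3 CPM in nTG. Its highest nTG value was that of replicate 7, and the log2 fold change was 0.38 (SE 0.13, adjusted p = 0.0261). Over all members, 32 of 37 log2 fold changes were above 0, as were 48.9% of all genes, with a median of 0.16 against -0.005 for all genes. Without nTG sedentary male replicate 7, 9 members passed, all higher, against 20.3% of all genes called in either direction. The 7 gained were Ifit2, Ifit3, Irf7, Oasl2, Rsad2, Ifih1 and H2-D1. In that fit 36 of 37 were above 0, with a median of 0.30. Without both libraries that stood apart, 18 passed, against 21.1% of all genes, and all 37 were above 0. Without TG sedentary male replicate 5, in which red blood cell markers were high and adipocyte markers at 11.07 CPM against 0.4296 to 2.48 CPM, B2m, at 0.36 with an adjusted p = 0.0501, did not pass and 1 member did, while 2874 of 16913 genes were called.

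In the same hearts, cell type markers moved. Of 11 macrophage markers, 10 rose, and 6 of 6 fibroblast markers and 3 of 3 general leukocyte markers rose, while 4 of 7 cardiomyocyte markers fell. Of 4 T and NK cell markers, 1 rose, Cd3e at 0.78 (SE 0.27, adjusted p = 0.0308). Acta1 rose as well, at 1.63 (SE 0.36, adjusted p = 0.000612). Summed macrophage markers were at 257.1, 355.3 and 425.4 CPM in TG sedentary males and at 192.3, 224.8 and 260.7 CPM in nTG sedentary males. The part of these cells in the change of Irf8 and B2m was not tested.

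In trained males, 6 members rose in TG hearts, against 5.65% of all genes called higher, and all 6 were interferon-induced. Ifit1, Ifit2 and Ifit3 encode RNA-binding proteins that block the translation of viral RNA. Ifit1 was at 2.793, 4.681 and 12.75 CPM in TG (n = 8) and at 2.325, 2.818 and 3.978 CPM in nTG (n = 8), with a log2 fold change of 0.88 (SE 0.24, adjusted p = 0.00729). Ifit2 was at 11.34, 13.21 and 29.1 CPM in TG and at 8.096, 9.47 and 11.78 CPM in nTG, with a log2 fold change of 0.64 (SE 0.15, adjusted p = 0.00156). Of the 8 TG hearts, 6 lay above every nTG heart for Ifit1 and 7 for Ifit2. Ifit3 was at 4.539, 6.649 and 20.82 CPM against 3.539, 4.772 and 6.971 CPM, with a log2 fold change of 0.72 (SE 0.25, adjusted p = 0.0437). Mx1 was at 0.2512, 0.4327 and 1.657 CPM against 0.06188, 0.2464 and 0.4861 CPM, a log2 fold change of 1.10 (SE 0.35, adjusted p = 0.0241). Its counts were low, and only 3 of 8 TG hearts lay above every nTG heart. Ifi44, an interferon-induced gene used as a marker of the response, had a log2 fold change of 0.82 (SE 0.28, adjusted p = 0.0417), from 1.259, 2.263 and 7.346 CPM against 1.031, 1.553 and 2.041 CPM. Rtp4, a chaperone of membrane receptors, had one of 0.51 (SE 0.17, adjusted p = 0.0351), from 2.95, 4.311 and 9.438 CPM against 2.522, 3.284 and 4.54 CPM.

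The highest TG value of each of these 6 genes was that of replicate 4, as the plot of 6 members by library shows for Ifit1, Ifit3 and Mx1. Without TG HIIT male replicate 4, 2 members passed, against 10.4% of all genes in either direction. Ifit2 stayed higher at 0.45 (SE 0.13, adjusted p = 0.019), and Tap2 was called lower, at -0.20 (SE 0.06). Ifit1 then had a log2 fold change of 0.58 (SE 0.22) with an adjusted p = 0.0843, and Ifit3, Mx1, Ifi44 and Rtp4 no longer passed either. Members above 0 went from 33 of 37, where 52.9% of all genes were, to 25 of 37, and their median log2 fold change from 0.22 to 0.09. Without nTG sedentary male replicate 7, which is in neither group but in the shared estimate of spread, 10 members passed, against 14.1% of all genes, adding B2m, Oasl2, Rsad2 and Usp18. With only the 2 groups compared in the fit, 2 members passed, Ifit1 and Ifit2, against 12.7% of all genes. Macrophage markers rose for 6 of 11 genes, fibroblast markers for 4 of 6 and general leukocyte markers for 2 of 3 in this comparison. Cardiomyocyte markers fell for 2 of 7, and red blood cell markers fell for 5 of 5 with a median log2 fold change of -1.22. When TG HIIT male replicate 4 was left out, 4 macrophage, 3 fibroblast and 0 general leukocyte markers rose, and 2 cardiomyocyte and 5 red blood cell markers fell. Their part in the members' changes was not tested.

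**Figure D3:**
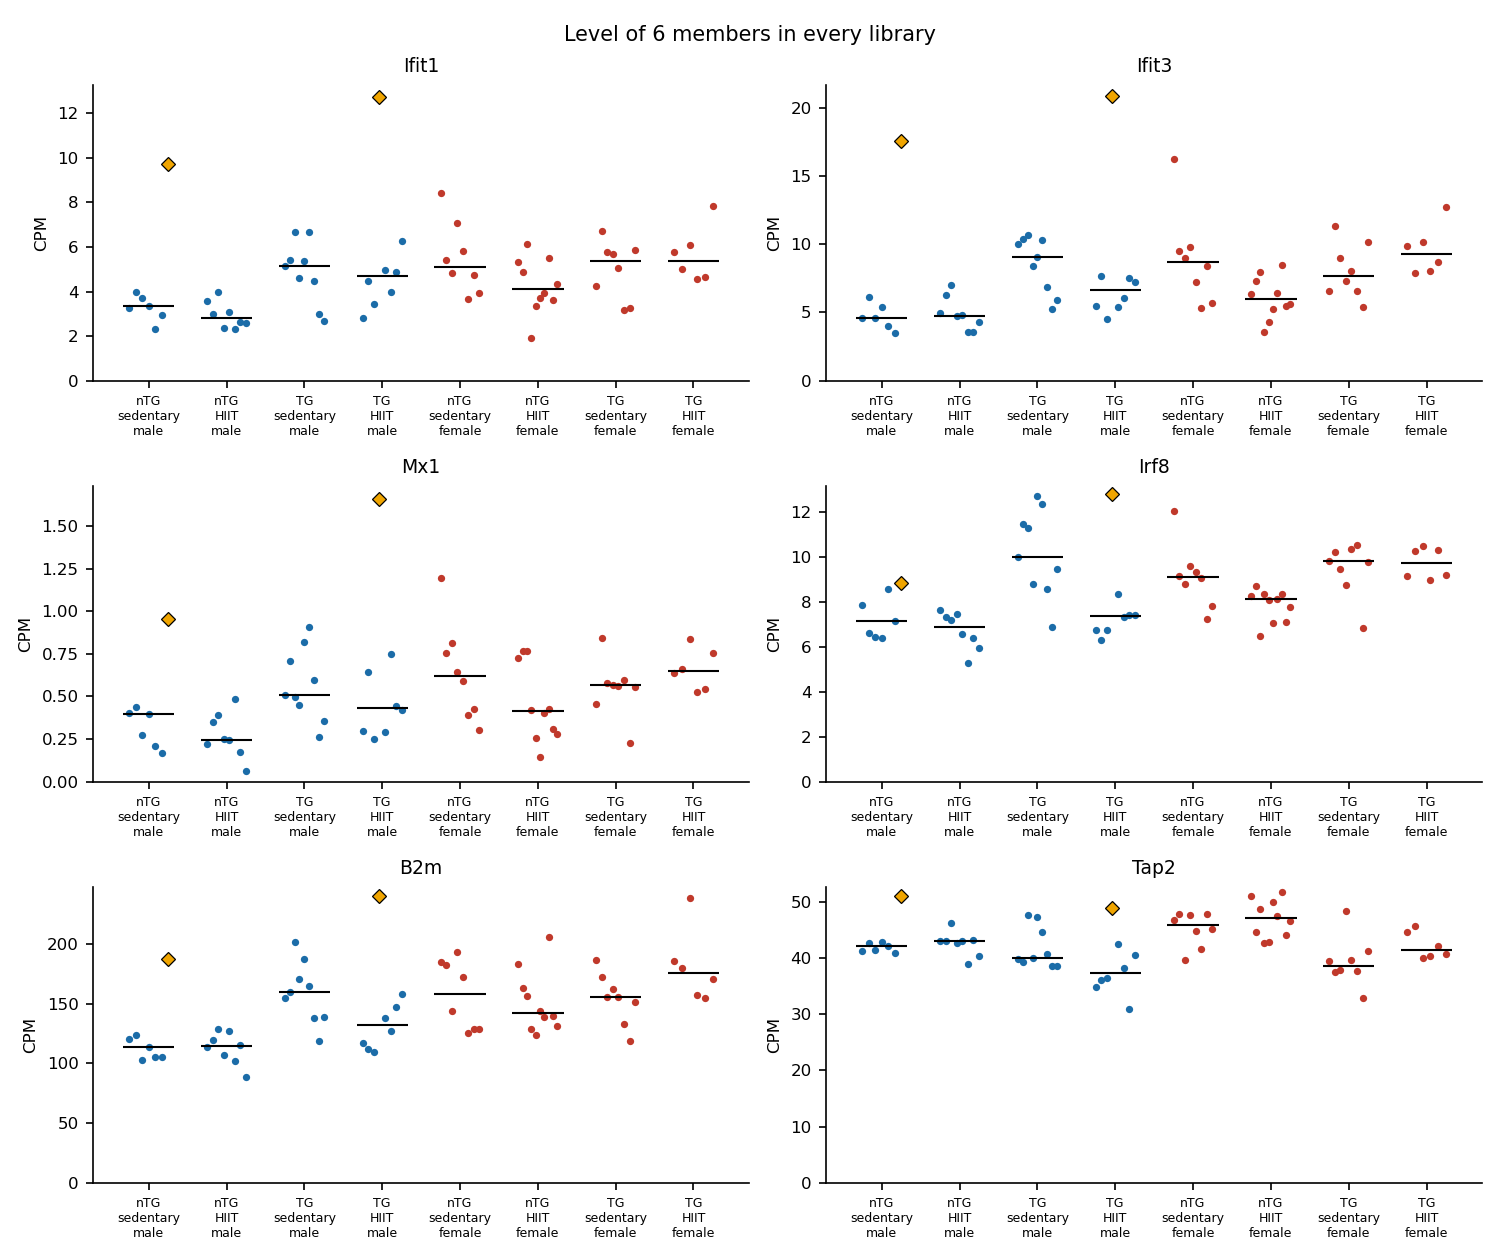
CPM of Ifit1, Ifit3, Mx1, Irf8, B2m and Tap2 in each of 64 libraries by group (males blue, females red), with a line at each group's median. Diamonds mark nTG sedentary male replicate 7 and TG HIIT male replicate 4, which are the highest of their groups in all 6 panels.

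In sedentary females, 0 members rose and 1 fell in TG hearts, against 1.58% of all genes called higher and 2.78% called lower. Tap2, which pumps peptides into the endoplasmic reticulum for class I loading, was at 32.98, 38.7 and 48.33 CPM in TG (n = 8) and at 39.73, 46.01 and 47.96 CPM in nTG (n = 8). Of the 8 TG hearts, 6 lay below every nTG heart and 1 lay above them all. The log2 fold change was -0.20 (SE 0.06, adjusted p = 0.0463). It no longer passed without TG sedentary female replicate 7, which had the lowest value of its group for 25 of 37 members, against 24.8% of all genes, and summed macrophage markers at 243.1 CPM against 301 to 376.4 CPM, or without TG HIIT female replicate 3, nor with only the 2 groups compared in the fit or with median-of-ratios size factors. Of the other 36 members, 1 was above 0 and 35 below, where 50.2% of all genes were below, and the median over the 37 was -0.16 against -0.000 for all genes. This comparison holds TG sedentary female replicate 7, lowest for 25 members, and nTG sedentary female replicate 1, the highest of its group for 28. No fit left out the latter. Class II members had the lowest median of the classes, at -0.34, and 2 of 5 reached an unadjusted p under 0.05, both lower, as did 9.13% of all genes. No macrophage marker and 1 of 6 fibroblast markers rose in this comparison. Acta1 rose as well, at 1.11 (SE 0.35, adjusted p = 0.0477).

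In trained females, 4 members rose in TG hearts, against 5.37% of all genes called higher. Ifit2 was at 11.78, 14.94 and 21.42 CPM in TG (n = 6) and at 8.329, 11.32 and 13.29 CPM in nTG (n = 10), and 5 of 6 TG hearts lay above every nTG heart. Its log2 fold change was 0.49 (SE 0.15, adjusted p = 0.0189). Irf8 was at 8.954, 9.745 and 10.47 CPM against 6.484, 8.108 and 8.693 CPM, and here the groups did not overlap. Its log2 fold change was 0.31 (SE 0.11, adjusted p = 0.0431). Xaf1, a pro-apoptotic interferon-induced gene, was at 5.035, 6.164 and 6.363 CPM against 2.993, 4.5 and 5.718 CPM, with a log2 fold change of 0.46 (SE 0.15, adjusted p = 0.0264). Ciita, the regulator of the class II genes, was at 3.594, 5.028 and 5.996 CPM against 2.611, 3.624 and 5.123 CPM, with one of 0.41 (SE 0.15, adjusted p = 0.0475). The class II genes that CIITA controls did not pass, and 4 of the 5 class II members were above 0 with a median of 0.03. All 25 interferon-induced members were above 0, as were 50.5% of all genes, with a median of 0.32 against 0.002 for all genes.

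The count of calls in trained females moved with single libraries. Without TG HIIT female replicate 3, whose summed B cell markers were at 35.08 CPM against 6.779 to 10.77 CPM in the other 5 and macrophage markers at 423 CPM against 275.5 to 332.7 CPM, 1 member passed, against 11.7% of all genes, Ifit2 at 0.49 (SE 0.16, adjusted p = 0.0343). The log2 fold changes of the other 3 stayed close, with Irf8 at 0.30 (SE 0.12, adjusted p = 0.0825), Xaf1 at 0.44 (SE 0.16, adjusted p = 0.052) and Ciita at 0.37 (SE 0.16, adjusted p = 0.117). Without TG HIIT male replicate 4, which is in neither group but in the shared estimate of spread, 7 passed, against 15.2% of all genes, with Ddx58, Ifit3 and Oas1a added. Without both libraries that stood apart 10 did, against 15.3%. With only the 2 groups compared in the fit, 13 passed, against 14.6%. Macrophage markers rose for 7 of 11 genes and fibroblast markers for 3 of 6, while cardiomyocyte markers fell for 3 of 7 and 0 of 5 red blood cell markers passed.

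**Figure D4:**
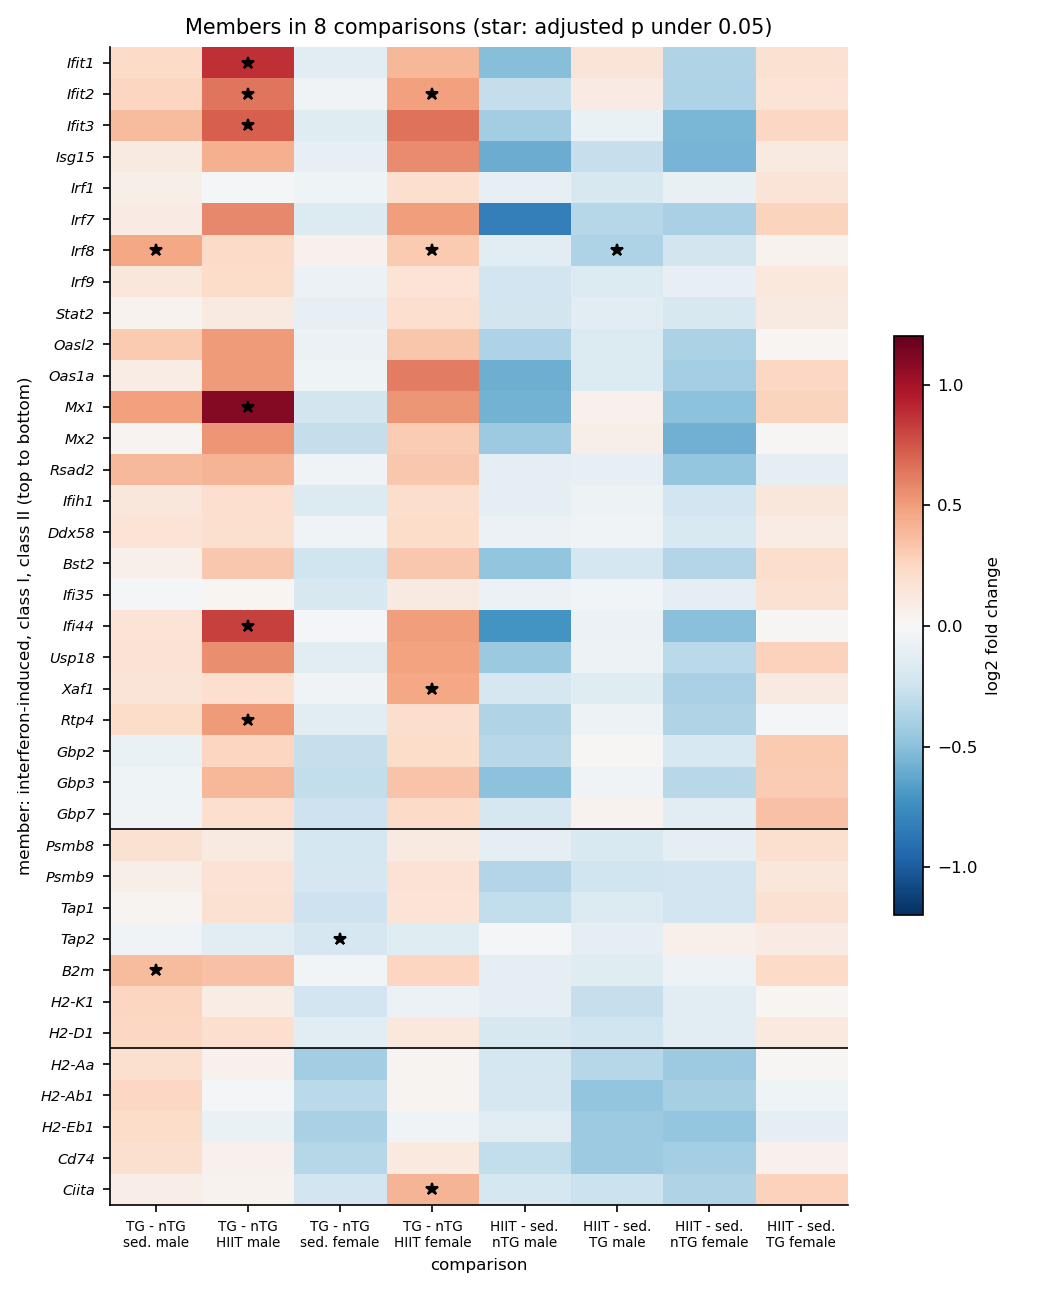
Log2 fold change (colour) of each member (rows, by class) in the 4 genotype comparisons and the 4 training comparisons (columns), with a star where the adjusted p is under 0.05. Interferon-induced members are mostly above 0 in 3 genotype comparisons and below 0 in TG sedentary females against nTG, and every member is below 0 for HIIT in nTG males.

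Averaged over sex and training, TG against nTG gave 13 members higher and 1 lower, against 18.5% of all genes called higher and 20.5% called lower. Those higher were Ifit1, Ifit2, Ifit3, Irf8, Oasl2, Oas1a, Mx1, Rsad2, Ddx58, Ifi44, Usp18, Xaf1 and B2m. Ifit2 had a log2 fold change of 0.34 (SE 0.07, adjusted p = 0.000159) and Irf8 of 0.26 (SE 0.05, adjusted p = 6.6e-05). Rsad2, or viperin, which makes a chain-terminating nucleotide, had one of 0.27 (SE 0.08, adjusted p = 0.00396). Oasl2 and Oas1a, of the oligoadenylate synthetase family, had 0.27 (SE 0.09, adjusted p = 0.019) and 0.29 (SE 0.12, adjusted p = 0.0398). Ddx58, the RNA sensor RIG-I, had 0.13 (SE 0.04, adjusted p = 0.0157), and Usp18, which removes ISG15 and dampens the receptor, had 0.27 (SE 0.10, adjusted p = 0.0342). Tap2 was the member that fell, with a log2 fold change of -0.14 (SE 0.03, adjusted p = 0.00035). By class, 12 of 25 interferon-induced, 2 of 7 class I and 0 of 5 class II members passed, and DESeq2 called 15 of 37 members and 39.2% of all genes. For class II, 0 members reached an unadjusted p under 0.05, which 46.7% of all genes did, and the median was -0.02. Without TG HIIT male replicate 4, 9 members passed, against 37.2% of all genes, and Ifi44, Mx1, Oas1a, Usp18 and Xaf1 were lost. Without nTG sedentary male replicate 7 there were 21, against 38.3%. In the same comparison, 11 of 11 macrophage, 6 of 6 fibroblast and 3 of 3 general leukocyte markers rose, with 2 of 6 dendritic cell and 1 of 6 B cell markers. Acta1 rose as well, at 0.93 (SE 0.17, adjusted p = 1.28e-05). Of the cardiomyocyte markers 6 of 7 fell, of the red blood cell markers 3 of 5, of the endothelial markers 2 of 7 and of the neutrophil markers 1 of 4. Their part in the members' changes was not tested.

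The next question was whether training went with a change. In TG males, 1 member fell with HIIT, against 7.6% of all genes called lower. Irf8 was at 6.31, 7.359 and 12.8 CPM in HIIT (n = 8) and at 6.902, 9.988 and 12.73 CPM in sedentary hearts (n = 9). The groups overlapped over most of their range, since replicate 4 of the trained hearts was the highest of all, and 3 of 8 trained hearts lay below every sedentary one. The log2 fold change was -0.37 (SE 0.10, adjusted p = 0.0106). With only the 2 groups compared in the fit, 0 members passed, and with genes limited to a mean of at least 1 CPM, 3 did, against 24.9% of all genes. Over all members, 31 of 37 were below 0, as were 50.0% of all genes, with a median of -0.15 against 0.000 for all genes. Of the macrophage markers 5 of 11 fell, of the fibroblast markers 1 of 6 and of the general leukocyte markers 2 of 3, while 2 of 7 cardiomyocyte markers rose. When TG HIIT male replicate 4 was left out, 6 macrophage, 4 fibroblast and 3 general leukocyte markers fell and 4 cardiomyocyte markers rose. All 5 red blood cell markers fell, with a median log2 fold change of -1.45. Their sum was at 259.6, 384 and 554.2 CPM in trained hearts and at 290.4, 546.9 and 4603 CPM in sedentary hearts, where replicate 5 was the highest. Their part in the members' changes was not tested.

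Without TG HIIT male replicate 4, 16 members were called, all lower, while 4061 of 16913 genes were called in either direction, and all 37 were below 0 with a median of -0.36. All 5 class II members were among the 16. H2-Ab1, H2-Aa and H2-Eb1, chains of the class II molecules, had log2 fold changes of -0.72 (SE 0.17), -0.62 (SE 0.17) and -0.73 (SE 0.19). Cd74, the invariant chain that guides them, had -0.66 (SE 0.16), and Ciita had -0.41 (SE 0.14). Irf8 was then at -0.52 (SE 0.10). H2-D1, a class I heavy chain, was at -0.40 (SE 0.10). The other 9 were Irf1, Irf7, Stat2, Oasl2, Bst2, Xaf1, Psmb9, Tap2 and B2m. Without it, summed macrophage markers of the trained hearts were at 243.7 to 318.3 CPM, against 257.1 to 425.4 CPM in sedentary hearts. Without TG HIIT female replicate 3, which is in neither group, 2 members passed, against 18.0% of all genes, with Cd74 added. Without TG sedentary female replicate 7, 3 did, against 19.9%, with H2-Ab1 added as well. Without both libraries that stood apart 20 did, against 24.2%.

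In nTG males, 0 members passed for HIIT by edgeR, against 0.0% of all genes, and 0 by DESeq2, against 0.0237%. All 37 were below 0, as were 49.9% of all genes, with a median of -0.23 against 0.000 for all genes, and 11 reached an unadjusted p under 0.05, all lower, against 2.97% of all genes. The lowest p was that of Bst2, or tetherin, which holds budding virus at the cell surface, with a log2 fold change of -0.47 (SE 0.16, adjusted p = 0.615). Without nTG sedentary male replicate 7, 29 of 37 were below 0, the median was -0.09, and 0 reached an unadjusted p under 0.05.

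In nTG females, 0 members passed by edgeR, which called 0.148% of all genes in either direction and 0.0237% lower. By DESeq2, 0 members passed as well, against 0.775% of all genes in either direction. Of the 37, 36 were below 0, as were 50.6% of all genes, with a median of -0.35 against -0.002 for all genes, and 16 reached an unadjusted p under 0.05, all lower, against 6.17% of all genes. That count was 6 with the replicate block, against 5.71% of all genes, and 26 without both libraries that stood apart, against 7.49%. Those 16 held 11 interferon-induced members and all 5 class II members. Rsad2 had the lowest p, at 8.501, 14.15 and 16.75 CPM in HIIT (n = 10) and 12.67, 18.62 and 23.94 CPM in sedentary hearts (n = 8), with a log2 fold change of -0.46 (SE 0.15, adjusted p = 0.155). Cd74 was at 69.01, 93.11 and 158.3 CPM against 95.07, 136.1 and 166.2 CPM, with one of -0.41 (SE 0.16, adjusted p = 0.22). Cd86, a costimulatory receptor of antigen-presenting cells that is not a member, was among the few genes of the whole table to pass, at -0.60 (SE 0.14, adjusted p = 0.0411).

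In TG females, 0 members passed by edgeR and 0 by DESeq2, and 0.0% of all genes did. Here 33 of 37 members were above 0, as were 47.8% of all genes, with a median of 0.14 against -0.004, and 2 reached an unadjusted p under 0.05, both higher, against 1.9% of all genes. With only the 2 groups compared in the fit, 7 reached that level, against 1.63%. The sedentary group holds TG sedentary female replicate 7, the lowest of its group for 25 of 37 members.

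Tests of the differences between these effects gave 0 members past the threshold in each of 5 interactions, by edgeR and by DESeq2, while 0.0% of all genes passed by edgeR and 0.0% to 1.32% by DESeq2. The genotype effect in trained minus that in sedentary females was above 0 for 37 of 37 members and 47.8% of all genes, with a median of 0.41 against -0.007 for all genes. For this interaction 15 members reached an unadjusted p under 0.05, against 3.25% of all genes higher, and the lowest was Ciita, with 0.64 (SE 0.21, adjusted p = 0.73). Without both libraries that stood apart, 24 members reached that level, all higher, against 3.72% of all genes, and with only the groups compared in the fit 23 did, against 2.96%. The same interaction in males had 25 of 37 above 0, against 50.8% of all genes, and 0 at an unadjusted p under 0.05, against 14.8%. Its direction turned with the 2 libraries. Members above 0 were 11 of 37 without nTG sedentary male replicate 7, 13 without TG HIIT male replicate 4, and 3 without both, when the median was -0.24 and 9 reached that level, all lower, against 10.4% of all genes. The genotype effect in trained females minus that in trained males had 14 of 37 above 0, against 47.2% of all genes, and also 0 at that level, against 5.38%. Without TG HIIT male replicate 4, 33 of 37 were above 0, with a median of 0.16 and 3 at that level, all higher, against 3.37% of all genes. The genotype effect in sedentary females minus that in sedentary males was below 0 for 37 of 37 members and 48.2% of all genes, with a median of -0.30. There 9 reached an unadjusted p under 0.05, against 4.8% of all genes lower, with Irf8 at -0.41 (SE 0.15, adjusted p = 0.499). Without nTG sedentary male replicate 7, 26 members did, against 5.36% of all genes lower, and the median was -0.52. Without both libraries 34 did, against 6.02%. Without TG sedentary female replicate 7, 3 did, against 3.88%, and without TG sedentary male replicate 5, 5 did, against 4.06%. The training effect in TG females minus that in TG males was above 0 for 35 of 37 and 49.8% of all genes, with a median of 0.33 and 8 at an unadjusted p under 0.05, against 7.2% higher. Without TG HIIT male replicate 4 this last interaction had 5 members past the threshold, against 2.72% of all genes, namely Irf8, H2-D1, Irf1, Ciita and Tap2, where Irf8 had 0.56 (SE 0.14) and Ciita 0.69 (SE 0.20). Without both libraries that stood apart it had 8, against 3.03%. Without TG sedentary male replicate 5, 5 members of this interaction reached an unadjusted p under 0.05, all higher, against 7.16% of all genes. These comparisons share groups of hearts, so their values are not independent of each other. Those with nTG sedentary females hold replicate 1 of that group, the highest for 28 members, which no fit left out. Members also shared the libraries in which they were high, so a count of members is not a count of independent results.

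Averaged over genotype and training, 12 members were higher in females and 0 lower, against 7.37% of all genes called higher in females and 9.21% called lower. Among the factors, Irf9, the DNA-binding subunit of the complex that binds the response element, had group medians of 14.63 to 15.52 CPM in females and 11.09 to 13.63 CPM in males, with a log2 fold change of 0.29 (SE 0.06, adjusted p = 0.000599). Irf8 had a difference of 0.18 (SE 0.05, adjusted p = 0.0143) and Irf1, the factor induced by interferon gamma, of 0.12 (SE 0.04, adjusted p = 0.049). The 3 guanylate-binding proteins among the members, GTPases that attack membranes of intracellular pathogens, were higher. Gbp7 had group medians of 20.38 to 25.32 CPM in females and 16.27 to 17.73 CPM in males, so that no male median reached a female one, with a log2 fold change of 0.24 (SE 0.07, adjusted p = 0.00552). Gbp2 had one of 0.24 (SE 0.06, adjusted p = 0.00295) and Gbp3 of 0.26 (SE 0.10, adjusted p = 0.0479). Gbp3 kept its log2 fold change but did not pass without TG sedentary male replicate 5 (adjusted p = 0.0515) or TG HIIT female replicate 3 (adjusted p = 0.054). Irf1, at 0.11, did not pass without the latter either (adjusted p = 0.0794). Oasl2 (0.34, SE 0.10, adjusted p = 0.00811), Rtp4 (0.30, SE 0.09, adjusted p = 0.00958) and Ddx58 (0.15, SE 0.04, adjusted p = 0.0158) made up the rest of the interferon-induced calls.

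In the class I pathway, 3 of 7 members were higher in females. B2m had group medians of 141.8 to 175.3 CPM in females and 113.4 to 160.1 CPM in males, with a log2 fold change of 0.27 (SE 0.06, adjusted p = 0.00148). Psmb8 and Psmb9, catalytic subunits of the immunoproteasome that cuts peptides for class I, had 0.18 (SE 0.06, adjusted p = 0.0333) and 0.19 (SE 0.07, adjusted p = 0.0474). Without TG HIIT female replicate 3 they were at 0.17 (adjusted p = 0.0566) and 0.19 (adjusted p = 0.0573) and did not pass. Of the 5 class II members, 0 passed by edgeR and 0 reached an unadjusted p under 0.05, which 28.9% of all genes did, and their median was 0.07. Of all 37, 36 were above 0, as were 50.5% of all genes, and Rsad2 was the exception. Without nTG sedentary male replicate 7, 24 members passed, against 16.4% of all genes, and without TG HIIT male replicate 4, 26 did, against 18.4%. Without both, 31 passed, all higher in females, against 18.3% of all genes in either direction, and all 37 were above 0. These counts follow in part from how the 2 male libraries were picked. No female library was left out beside them. Kept were nTG sedentary female replicate 1 and nTG HIIT female replicate 8, highest of their groups for 28 and 27 of 37 members. Without both male libraries, Oasl2 had a log2 fold change of 0.51 (SE 0.06), and the 6 that did not pass were Rsad2, H2-K1, H2-Aa, H2-Ab1, H2-Eb1 and Cd74. Without TG HIIT female replicate 3, 8 passed, while 2708 of 16913 genes were called. Over the sexes, 1 of 11 macrophage markers, 2 of 6 fibroblast markers and 1 of 4 T and NK cell markers rose in females, and 0 of 3 general leukocyte markers did. When TG HIIT male replicate 4 was left out, 4 macrophage and 3 fibroblast markers rose. Lower in females were 3 of 7 endothelial, 2 of 7 cardiomyocyte, 1 of 6 B cell and 1 of 4 neutrophil markers. Their part in the members' differences was not tested.

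**Figure D5:**
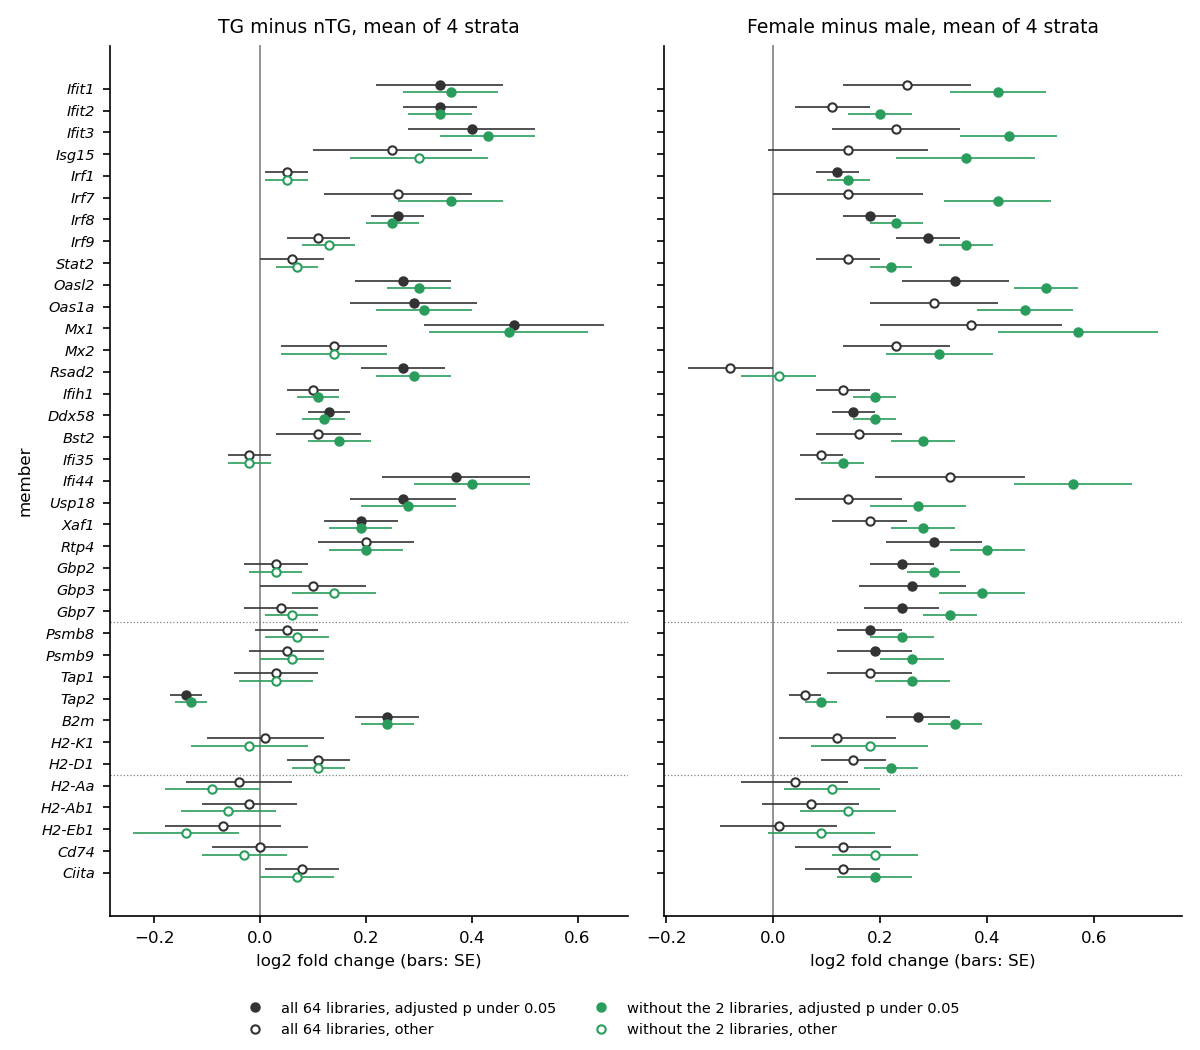
Log2 fold change with its SE (bars) of each member for TG minus nTG (left) and female minus male (right), each a mean over 4 strata, with all 64 libraries (black) and without the 2 libraries that stand apart (green). Filled points have an adjusted p under 0.05. The female calls go from 12 to 31 of 37 when both male libraries, picked for their high members, are left out. All female libraries are kept.

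H2-K1, the other class I heavy chain, behaved unlike H2-D1 in 2 libraries. The ratio of their CPM was 0.161 in TG HIIT male replicate 7, where H2-K1 was at 18.43 CPM and H2-D1 at 114.7 CPM. It was 0.176 in TG HIIT female replicate 3, with 34.3 and 195.3 CPM, and in every other library it was 0.423 to 0.718. H2-K1 had a within-group SD of 0.514, against 0.235 for H2-D1, and passed in none of the comparisons made with all libraries. H2-K1, H2-D1 and the H2-Q genes are near copies of each other, as are Ifit3 and Ifit3b, and Oas1a and Oas1g, so the division of reads between them is uncertain.

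Genes that act upstream of the members were tested as well. The counts of this list and of the later ones stand against the shares of all genes called in the same comparisons, which were 9.39% higher and 11.2% lower in sedentary males, 5.65% and 8.31% in the trained ones, 1.58% and 2.78% in untrained females, and 5.37% and 9.43% in trained females. Of 17 interferon signalling genes in the table, Jak1, the kinase shared by interferon receptors, rose in TG hearts in all 4 strata. Its log2 fold changes were 0.34 (SE 0.05, sedentary males), 0.49 (SE 0.05, trained males), 0.35 (SE 0.05, sedentary females) and 0.31 (SE 0.05, trained females), with adjusted p from 5.55e-12 to 4.15e-06. Over the list, 4 rose and 1 fell in sedentary males and 2 rose in the trained ones. In females, 1 rose without training and 3 with it. In sedentary males, 3 rose and 1 fell without nTG sedentary male replicate 7, and in the trained ones 1 rose without TG HIIT male replicate 4. Socs1, a feedback inhibitor of JAK kinases, was higher in females at 0.36 (SE 0.08, adjusted p = 0.00138). The interferon genes Ifnb1 and Ifng were not analysed here.

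Among 16 nucleic acid sensing genes, Mavs, the adaptor below the RNA sensors RIG-I and MDA5, fell in TG hearts in every stratum but sedentary males. Its log2 fold changes were -0.42 (SE 0.06, adjusted p = 9.11e-07) in trained males, -0.25 (SE 0.06, adjusted p = 0.00553) in untrained females and -0.27 (SE 0.06, adjusted p = 0.0014) in trained females. Tlr7, an endosomal sensor of single-stranded RNA, rose in TG males, at 0.63 (SE 0.14, adjusted p = 0.000944) when sedentary and 0.60 (SE 0.14, adjusted p = 0.00207) when trained. Zbp1, a sensor of Z-form nucleic acids, rose in trained males, at 1.28 (SE 0.34, adjusted p = 0.00716). It was at 5.515 CPM in TG HIIT male replicate 4 against 0.592 to 1.416 CPM in its group, and without that library it was at 0.62 (SE 0.30, adjusted p = 0.194). Over the 16, 4 rose in sedentary males, 2 rose and 1 fell in the trained ones, and in females 0 rose and 1 fell both without training and with it. In sedentary males 5 rose without nTG sedentary male replicate 7, and in the trained ones 1 rose and 1 fell without TG HIIT male replicate 4. Of 40 further interferon-induced genes, 4 rose in sedentary males and 6 in the trained ones, while in females 0 rose and 1 fell without training and 6 rose with it. Ifi204, a DNA sensor of the same induced family, rose in both male strata and in trained females, by 0.83 (SE 0.17), 0.90 (SE 0.17) and 0.75 (SE 0.17) on the log2 scale, with adjusted p from 8.95e-05 to 0.00109. Ifi204 was at 13.82 CPM in TG HIIT male replicate 4 against 4.27 to 7.588 CPM in its group, and without that library its log2 fold change in trained males was 0.68 (SE 0.15). In females against males, 12 of the 40 rose and 0 fell, where 7.37% of all genes were called higher in females. These 40 genes were also high in the 2 libraries, with 38 highest in TG HIIT male replicate 4 and 35 in nTG sedentary male replicate 7. Without the former, 2 of the 40 rose in trained males, against 3.88% of all genes, 10 in trained females, against 6.54%, and 23 in females against males, against 8.69%. Without the latter, 11 rose in sedentary males, against 9.58% of all genes, and 18 in females against males, against 7.56%.

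Of 17 further class I genes, Psme1, a subunit of the interferon-inducible proteasome activator, fell in TG hearts in all 4 strata. Its log2 fold changes were -0.35 (SE 0.06), -0.33 (SE 0.06), -0.27 (SE 0.06) and -0.33 (SE 0.06) in the same order of strata as for Jak1, with adjusted p from 6.04e-06 to 0.00122. In this list 0 genes rose in the 4 genotype comparisons, by the same test, while 3, 1, 1 and 3 fell. Of the same list, 2 rose and 2 fell in sedentary males without nTG sedentary male replicate 7, and 1 fell in trained males without TG HIIT male replicate 4. Of 12 further class II genes, 5 rose and 1 fell in sedentary males, and 3 rose and 1 fell in the trained ones. In females, 0 rose and 1 fell without training, and 3 rose and 1 fell with it. Again 5 rose and 1 fell in sedentary males without nTG sedentary male replicate 7, and 2 rose and 1 fell in the trained ones without TG HIIT male replicate 4. Rfxank, a subunit of the complex that binds the X box of class II promoters, was the gene that fell in each stratum, with log2 fold changes of -0.21, -0.19, -0.20 and -0.18 (SE 0.06 each), in the same order of strata, and adjusted p from 0.00835 to 0.0415. In trained females it did not pass without TG HIIT male replicate 4, at -0.17 (SE 0.06, adjusted p = 0.0615). Cd86 rose in sedentary males, at 0.59 (SE 0.14, adjusted p = 0.00195), in trained males, at 0.74 (SE 0.14, adjusted p = 0.000161), and in trained females, at 0.83 (SE 0.14, adjusted p = 3.76e-05). Ctss, a protease that trims the invariant chain, rose in sedentary males, at 0.67 (SE 0.13, adjusted p = 0.0002), in trained males, at 0.39 (SE 0.13, adjusted p = 0.0386), and in trained females, at 0.46 (SE 0.13, adjusted p = 0.0148). In trained males, Ctss did not pass without TG HIIT male replicate 4, at 0.23 (SE 0.12, adjusted p = 0.242), while Cd86 was then at 0.67 (SE 0.14, adjusted p = 0.0011).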

How the data were processed

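Heart RNA libraries were made after ribosomal RNA depletion, per the labels' protocols. The authors deposited whole-number counts per gene and estimated counts per lncRNA transcript. The submitters' processing notes name cutadapt 2.3, FastQC 0.11.8, MultiQC 1.7, STAR 2.7.8a, RSEM 1.3.3 and the builds GRCm38 and mm10, with no role given. Gene columns were joined to the labelled lncRNA columns by correlation of log2 counts over 389 shared transcripts with a mean of at least 20 counts. All 16913 genes were tested with edgeR 4.0.16 (R 4.3.3) after TMM scaling and a filter on low counts that removed no gene, by the quasi-likelihood test in a model with 8 group means, with Benjamini-Hochberg adjustment and a threshold of 0.05. SE is the log2 fold change divided by the root of F. Levels are CPM after TMM scaling, apart from those of Tnnt2, which use the unscaled library total. Totals were 34.6 to 67.1 M counts, so counting error is small for most members. It is larger for Mx1, Isg15, Mx2 and Ifi44, with 3, 23, 26 and 43 counts in their lowest libraries. The alternatives were DESeq2 1.42.0, other size factors, other filters, smaller fits, a replicate block, columns by name and single libraries left out, the last chosen after seeing the data. The scripts were tested on simulated data.

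Members and lists were chosen with earlier results of these data known, so no count over them has a p-value. Members also shared the libraries in which they were high or low, so their counts and signs are not independent. Levels and log2 fold changes were named for members that passed in any of the 8 comparisons of 2 groups or in the 2 means over strata, and for at most 2 rising and 2 falling genes of each list per comparison. Other genes were named where a count or a library turned on them, after their values were seen. The labels give groups of 6 to 10 libraries. Whether the libraries of a group share a litter, cage or day is not given in the sources used here, so p-values measure the spread between these libraries. A gene of the signalling list is not reported here.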

Additional observations from a re-analysis of the deposited data

Results flagged for a closer look

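For the 3 class sums and 11 members, 112 groups of values were tested for a single library far from the rest (Dixon's test), and 26 stood out, where chance gives about 1 in 20, or 5.6. Nearly all came from nTG sedentary male replicate 7 and TG HIIT male replicate 4, and the members share those libraries, so the tests are not independent. The interferon-induced sum was 411.3 CPM in the first and 414.6 CPM in the second. In the second, the class I sum was 788.2 CPM and the class II sum 342.3 CPM. Ifit1 was at 9.724 and 12.75 CPM, Ifit2 at 19.92 and 29.1 CPM, and Ifit3 at 17.53 and 20.82 CPM, in that order of libraries. Mx1 was at 0.9567 and 1.657 CPM, Ifi44 at 6.99 and 7.346 CPM, Xaf1 at 8.22 and 9.046 CPM, Rtp4 at 7.459 and 9.438 CPM, and B2m at 187.3 and 240.5 CPM. Tap2 stood out in the nTG library alone, at 51 CPM, and Irf8 and Ciita in the TG library alone, at 12.8 and 6.278 CPM.

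Of the others, 2 were in nTG sedentary female replicate 1, with Ifit3 at 16.21 CPM against 5.336 to 9.784 CPM and Ifi44 at 5.657 CPM against 2.134 to 3.647 CPM. The remaining one was low, the class II sum of nTG sedentary male replicate 3, at 133.7 CPM against 186.5 to 226.2 CPM in the other 6. What set these libraries apart was not tested.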

How the results depend on the processing

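Of the counts of members under an alternative, 141 stayed within 1.5 times the count reported and 37 moved. Of the members' log2 fold changes recomputed with the joined columns, 55 stayed past the threshold, 27 did not and 0 changed sign. Gene columns taken by name gave 0 members in every comparison. There, 1 of 37 log2 fold changes for TG against nTG in trained males was above 0, against 33 with the joined columns. With only the groups compared in the fit, TG against nTG gave 2 members in trained males, 13 in trained females and 0 in sedentary ones, and HIIT in TG males gave 0. Median-of-ratios size factors gave 0 in sedentary females, and a mean of at least 1 CPM gave 3 for HIIT in TG males. DESeq2 moved no count past that limit. The filter on low counts removed no gene, so a fit without it was the same fit and is not counted here.

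Replicate numbers did not pair the libraries: the median correlation of same-numbered deviations was -0.032 to 0.043 over 8 comparisons, and at most 2 of 7 numbers correlated best with their own. For TG against nTG, the replicate block gave 1 member in trained females, Xaf1 (adjusted p = 0.0442 by edgeR), while Ifit2 at 0.43 (adjusted p = 0.0701), Irf8 at 0.26 and Ciita at 0.34 no longer passed. It gave 0 in sedentary females and 4 in trained males, where Ifi44 at 0.76 (0.82 without the block) and Ifit3 at 0.69 (0.72) no longer passed. For the mean sex effect it lost Gbp3 (0.27, adjusted p = 0.054) and Psmb9 (0.18, adjusted p = 0.0731), and for the mean genotype effect Usp18 (0.26, adjusted p = 0.0542). For HIIT in TG males it gave 3.

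In the comparisons where leaving out a library moved the count past 1.5 times, counts for TG against nTG ran from 1 to 18 in sedentary and 2 to 10 in trained males. In females they ran from 0 to 1 at rest and 1 to 10 with training. They ran from 1 to 20 for HIIT in TG males, 9 to 21 for the mean genotype effect, 8 to 31 for the mean sex effect and 0 to 8 for the training effect of TG females minus that of TG males. Only 6 such settings were run, on libraries chosen after seeing the data. Depth limits Mx1 most and Isg15, Mx2 and Ifi44 less, and near copies limit the H2, Ifit and Oas genes.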
